A study of Mus musculus with 6 samples.

Results

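Genes of primitive red blood cells were read in mouse forelimb buds at E10.5 as a record of how much blood each dissected part of the bud contained. The 9 genes were taken by name (Alas2, Hba-x, Hbb-bh1, Hbb-y, Klf1, Hemgn, Gata1, Epor and Slc4a1), and all probe sets annotated to them were used, which gave 15 of the 45101 probe sets and 9 of the 18193 genes on the array. Primitive erythroid cells arise in the yolk sac, enter the circulation with the first heartbeats and are the main blood cells of the embryo at this stage. They are rich in embryonic globins and also make adult alpha-globin. Their development depends on the transcription factors GATA1 and KLF1 and is supported by erythropoietin acting through its receptor.

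RNA from the proximal part and from the distal part of CD1 strain forelimb buds was hybridised to 6 one-colour Affymetrix arrays, 1 for each part in each of 3 conditions. The RA buds came from embryos labelled wild type whose mothers received all-trans retinoic acid (RA) by gavage, 100 mg/kg at E10.25. The dKO buds were labelled Prx1-Cre; Ring1A-/-; Ring1Bfl/fl, lacking RING1A throughout and RING1B, the other ubiquitin ligase of Polycomb repressive complex 1, where the Prx1-Cre transgene has been active, which is in limb mesenchyme and not in blood cells. The control buds had the genotype label Ring1A-/- and received no RA, although another label of the same arrays calls them WT. Every RA against control comparison therefore changes the Ring1A label together with RA, and the RA and dKO comparisons share the same control arrays. The number of embryos behind each RNA sample was not given in the sources used here.

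Values are MAS5 signals, a linear brightness per probe set that is comparable between arrays for 1 probe set but not between probe sets. The median signal of an array, 59.5 to 76.1, was used as its floor. The proximal RA array stood apart: it correlated with the other 5 at r = 0.927 to 0.951 across genes, and its brightest probe set had 26458 against 14768 to 16620 elsewhere. Its 3′ to 5′ signal ratio, which grows as RNA degrades, was 1.60 by the GAPDH controls (1.28 to 1.39 on the other arrays) and 1.95 by the actin controls (1.52 to 1.72). Both RA arrays also differed from the other 4 in the BioB spike-in (84.4 and 103, others 1105 to 1223). They differed in sex-linked RNA too, with Xist at 12.9 and 29.5 on the RA arrays and 3017 to 3688 elsewhere. Eif2s3y went the other way, with 2783 and 3064 on the RA arrays and 4.25 to 12.3 elsewhere. Comparisons of RA with control or dKO therefore change sex-linked RNA together with RA, and Alas2 and Gata1 lie on the X chromosome. With 1 array per group no difference between arrays has a replicate check, and fewer red cells in a part cannot be told apart from less RNA per red cell.

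All members were measured. Each of the 9 genes was above the floor on all 6 arrays. Of the 15 probe sets, 14 were above the floor on all arrays. The exception was a probe set of Slc4a1 (1431743_a_at), with signals of 3.41 to 24.2, which was below the floor on every array and was not used.

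Promoter windows of 7 of the 9 genes are in the RefSeq table (build GRCm38.p6), 250 bases before to 50 after a start. For 6 of them that is the start of the gene in RefSeq's gene table, while the Gata1 window lies 8753 bases inside the gene and was left out of the counts. A GATA motif, AGATAA or TGATAA on either strand, was in 6 of the 6 and in 21.1% of the 19827 windows of the table that lie at their gene's start. The motif CCACCC on either strand, the core of the CACCC box that KLF1 binds, was in 5 of the 6 and in 28.8% of all these windows. Both kinds were in 5 of the 6 and in 4.55% of all. The motifs do not overlap in these promoters apart from copies of CCACCC on the minus strand in Alas2. The matches are descriptions of these windows and no binding was measured. The 4 promoters below are those of Epor and Hemgn, the members that differed most between arrays, and of 1 embryonic globin from each globin cluster, with all motif matches in capitals.
Epor, chr9:21963527-21963826, minus strand: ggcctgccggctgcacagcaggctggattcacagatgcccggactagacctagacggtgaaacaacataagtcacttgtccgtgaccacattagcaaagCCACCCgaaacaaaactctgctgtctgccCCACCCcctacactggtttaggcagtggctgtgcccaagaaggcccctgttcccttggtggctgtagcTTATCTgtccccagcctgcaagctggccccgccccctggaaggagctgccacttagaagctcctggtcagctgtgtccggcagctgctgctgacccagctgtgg
Hemgn, chr4:46404134-46404433, minus strand: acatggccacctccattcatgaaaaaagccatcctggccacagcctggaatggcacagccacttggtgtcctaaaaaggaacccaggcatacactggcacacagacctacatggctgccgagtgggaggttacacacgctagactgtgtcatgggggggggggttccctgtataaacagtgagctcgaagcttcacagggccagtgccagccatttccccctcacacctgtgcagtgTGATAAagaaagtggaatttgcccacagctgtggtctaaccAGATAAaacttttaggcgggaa
Hba-x, chr11:32276350-32276649, plus strand: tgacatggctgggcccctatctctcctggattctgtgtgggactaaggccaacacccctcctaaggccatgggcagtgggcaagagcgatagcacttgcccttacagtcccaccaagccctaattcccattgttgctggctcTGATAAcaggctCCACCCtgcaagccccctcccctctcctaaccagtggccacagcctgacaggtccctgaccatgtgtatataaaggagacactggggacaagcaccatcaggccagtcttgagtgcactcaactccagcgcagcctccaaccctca
Hbb-y, chr7:103853158-103853457, minus strand: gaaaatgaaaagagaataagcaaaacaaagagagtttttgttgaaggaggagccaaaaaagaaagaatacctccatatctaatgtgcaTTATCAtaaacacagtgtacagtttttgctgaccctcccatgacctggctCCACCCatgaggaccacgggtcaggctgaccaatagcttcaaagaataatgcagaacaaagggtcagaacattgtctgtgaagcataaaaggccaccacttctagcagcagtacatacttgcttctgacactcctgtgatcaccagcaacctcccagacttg

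Epor encodes the erythropoietin receptor, which endothelial cells also carry, and it had the largest fitted dKO effect of the 9 genes. Its probe set (1423344_at) had signals of 73.9 proximally and 102 distally in RA, 275 and 227 in dKO, and 95.7 and 109.8 in control. Both dKO values were above all 4 others, which lay close to the floor. The log2 difference of dKO from control was 1.53 proximally and 1.05 distally, and that of RA from control was -0.37 and -0.11.

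Among the transcription factor genes, Gata1 (1449232_at), the master regulator of the erythroid lineage, had signals of 135 proximally and 216 distally in RA, 299 and 334 in dKO, and 255 and 142 in control. The dKO values were the 2 highest, and the proximal part was below the distal part in RA but above it in control. Klf1 (1418600_at), whose product switches on globin and red cell membrane genes, gave 238 and 301 in RA, 464 and 551 in dKO, and 354 and 389.5 in control. The 3 conditions did not overlap for Klf1, with RA lowest and dKO highest in both parts. Hemgn (1418199_at), which encodes the nuclear protein hemogen of blood cell precursors, gave 102 and 539 in RA, 481 and 614 in dKO, and 543 and 347 in control. The proximal RA array was lowest by far, while the other 5 arrays overlapped across conditions.

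Alas2 (1451675_a_at) encodes the erythroid enzyme of the first step of haem synthesis. Its signals were 722 and 985 in RA, 1043 and 1276 in dKO, and 800.3 and 814 in control. Here too both dKO arrays were above the rest. Slc4a1 encodes band 3, the anion exchanger of the red cell membrane, and its brightest probe set (1434502_x_at) gave 1778 and 2802 in RA, 2664 and 2887 in dKO, and 1978 and 1754 in control. The proximal RA array was near the control arrays and the distal RA array near the dKO arrays. A further probe set (1416464_at) gave 1358 and 2257 in RA, 2018 and 1997 in dKO, and 1704 and 1495 in control, with the distal RA array highest.

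Hba-x, which encodes the embryonic alpha-like zeta chain (1448716_at), gave 14289.5 and 10641 in RA, 10679 and 9103 in dKO, and 8909 and 8947 in control. Hbb-y, the embryonic beta-like epsilon-y gene, had on its brightest probe set (1436717_x_at) 14314 and 15693 in RA, 15646 and 15059 in dKO, and 14008 and 12982 in control. The distal control array was the lowest for this probe set. Its range over the 6 arrays, 0.27 on the log2 scale, was the smallest of the 9 genes by their brightest probe sets, and that of Hemgn, 2.59, the largest. Probe sets 1437990_x_at and 1450736_a_at of Hbb-bh1 ranged less, over 0.20 and 0.25.

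The probe sets of the beta-like globins did not all give the same order. For Hbb-bh1, the embryonic beta-H1 gene, probe set 1437810_a_at gave 16388 and 10331 in RA, 11572 and 10321 in dKO, and 9881 and 9824 in control, so the proximal RA array was highest. Probe set 1437990_x_at gave 10150.5 and 10485 in RA, 11318 and 11014 in dKO, and 10286 and 9872 in control, with the dKO arrays highest. On 1450736_a_at the values were 9636 and 10042 in RA, 10250.1 and 10010.2 in dKO, and 9363 and 8627 in control. The log2 difference of RA from control in the proximal part was thus 0.73 by the first and -0.02 and 0.04 by the others. For Hbb-y, 1436823_x_at followed the brightest probe set closely, while 1450621_a_at gave 10874 and 9494 in RA, 9428 and 9109 in dKO, and 8376 and 8189 in control, and was highest on the proximal RA array. Beta-like globin transcripts are similar to each other, and the sequences of these probes were not used here, so the split between Hbb-bh1 and Hbb-y is uncertain.

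**Figure D1:**
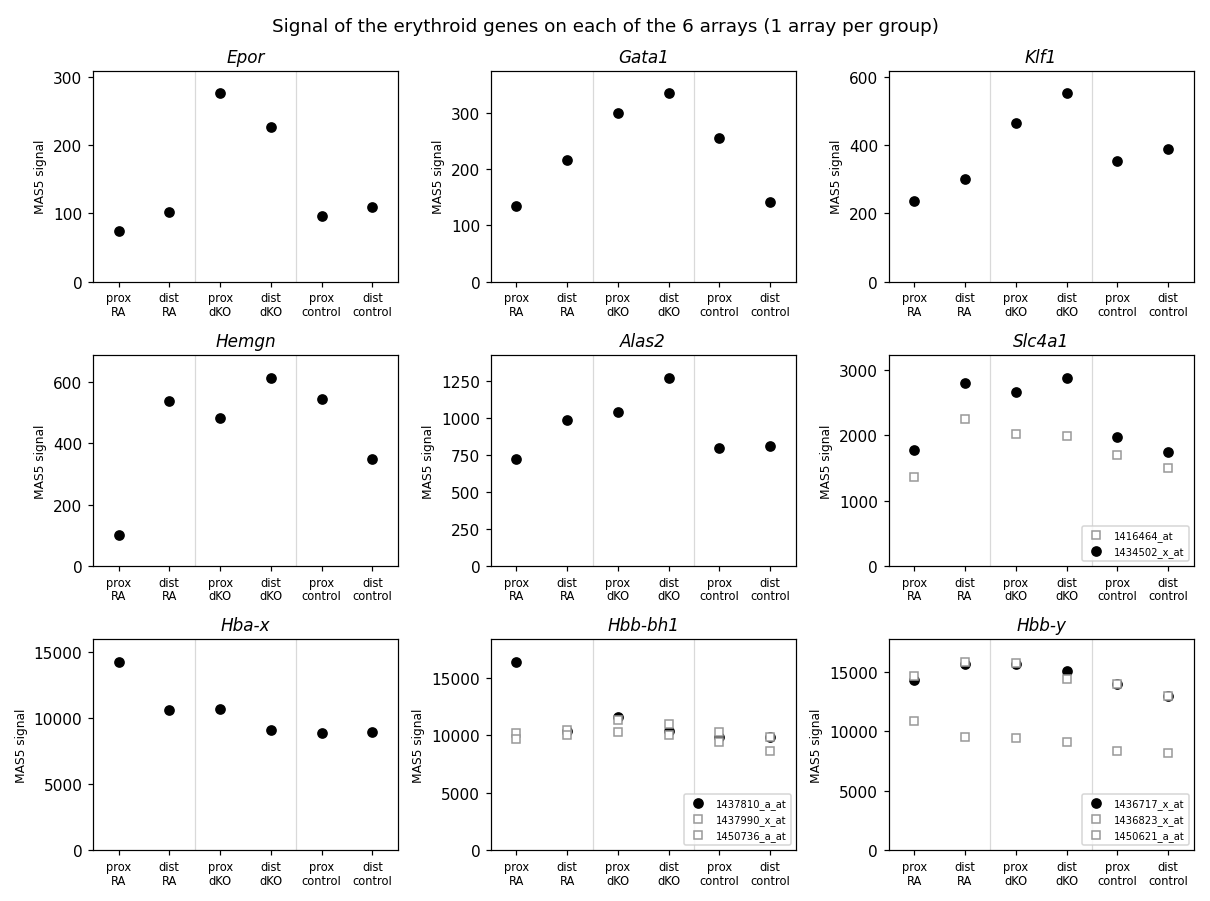
MAS5 signal (linear axis from 0) of each erythroid gene on the proximal and distal arrays of RA, dKO and control buds, with 1 point per array and probe set. Black circles are the brightest probe set of a gene and open squares its others, and the probe set of Slc4a1 that was below the floor is not drawn. Epor, Klf1, Gata1 and Alas2 are highest on the 2 dKO arrays, Hemgn is lowest on the proximal RA array (102), and Hba-x, 1 of 3 probe sets of Hbb-bh1 and 1 of 3 of Hbb-y are highest there.

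Over the 6 arrays, the 6 members that are not globins had pairwise correlations of 0.54 to 0.91 (Pearson r of log2 signal, 15 pairs). Their correlations with Hba-x and Hbb-bh1 were all below 0, between -0.90 and -0.19 (12 pairs), while those with the third globin, Hbb-y, were all above 0, between 0.16 and 0.87 (6 pairs). Each gene was read by its brightest probe set, which for Hbb-bh1 is 1437810_a_at, with 16388 on the proximal RA array. The other probe sets of Hbb-bh1 had 10150.5 and 9636 on that array. Correlations of the other globin probe sets were not computed, so these signs hold for the brightest ones only. These are descriptions of 6 arrays that differ in condition, part and array quality at once.

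The comparison of dKO with control asks whether buds without RING1A and RING1B in the limb mesenchyme held a different amount of blood RNA. The erythroid genes were higher in dKO with 1 exception: 8 of 9 had both dKO arrays above both control arrays, as had 29.4% of the 12147 genes measured. In those 8 the difference was above 0 in both parts, as in 37.5% of all genes. The exception was Hemgn, which was lower proximally (-0.18) and higher distally (0.82). The median log2 difference of the 9 genes was 0.26 proximally and 0.65 distally, against 0.02 and 0.01 over all genes. In 4 of the 9 (Alas2, Klf1, Gata1 and Epor) both dKO arrays were above all 4 other arrays, as in 17.3% of all genes. None had both dKO arrays below both control arrays or below all others (20% and 7.53% of all genes). The differences were mostly below 2-fold: 1 of 9 was 2-fold or more higher proximally, Epor, and 2 of 9 distally, Gata1 (1.24) and Epor, with 0 lower. Of all genes, 4.07% were 2-fold higher and 0.363% lower proximally, and 5.32% and 0.524% distally.

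In an additive limma fit over all genes, with condition and part as terms, 0 of the 9 genes passed an adjusted p of 0.05 for dKO, and 3 (Epor, Slc4a1 and Alas2) had an unadjusted p under 0.05, all higher. For Slc4a1 this holds for its brightest probe set, while 1416464_at had a fitted effect of 0.33 (limma unadjusted p = 0.212). Of all genes 2.21% were called higher and 0.115% lower, and 10.7% and 0.963% had an unadjusted p under 0.05. Epor came nearest, with a fitted log2 effect of 1.29 (SE 0.25, limma adjusted p = 0.0568). It passed with a fixed floor of 100 (limma adjusted p = 0.0423), which replaced its signals in proximal control (95.7) and proximal RA (73.9). It also passed with the mean over probe sets for every gene (adjusted p = 0.0484). Epor has no other probe set, so its own values did not change there. It was further from the threshold after quantile normalization (1.11, limma adjusted p = 0.167) and after division by the array median (1.01, adjusted p = 0.187). The same held with log2(signal + 16) (1.17, adjusted p = 0.135) and with each probe set fitted on its own (adjusted p = 0.111). Without the proximal dKO array its fitted effect was 0.98, also further from the threshold. Fitted effects of the other members were 0.73 for Gata1 (SE 0.38, limma adjusted p = 0.605), 0.57 for Slc4a1 (SE 0.21, adjusted p = 0.347), 0.52 for Alas2 (SE 0.19, adjusted p = 0.347) and 0.45 for Klf1 (SE 0.23, adjusted p = 0.61). The Gata1 effect was 0.099 without the distal control array and 1.37 without the proximal one. The 3 globins had fitted effects of 0.14 to 0.19, which turned to -0.13 to -0.09 when each array was divided by its median signal, so no direction can be given for them. That scaling moved the median difference of all genes to -0.17 proximally and -0.35 distally and the members' medians to 0.07 and 0.29.

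The dKO calls depended on the RA arrays through the residual variance, while the fitted dKO effects did not. Without the proximal RA array, the distal RA array or both, these effects stayed at 1.29 for Epor, 0.57 for Slc4a1 and 0.52 for Alas2. Such fits have 1 residual degree of freedom, which is the disagreement between the parts in dKO and control alone. Only fitted effects are therefore given for them. Without the distal dKO array the fitted effect of Epor was 1.59.

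Markers of other cells of the bud were also compared between dKO and control. Endothelial genes were higher in 10 of 10 in both parts, with medians of 0.54 and 0.44, and their summed signal was 4922 proximally and 3495 distally in dKO against 3380 and 2501 in control. Of these 10 genes 8 were above the floor on all arrays and none was below it on all. Limb mesenchyme genes had medians of -0.07 and 0.04, and a summed signal of 32357 and 33759 in dKO against 36285 and 34060 in control. Macrophage genes had medians of 0.29 and 0.004, over 5 and 6 genes measured. Their summed signal was 1280 and 1217 in dKO against 1064 and 1126 in control. Only 5 of the 10 macrophage genes were above the floor on all arrays, and Cx3cr1 was below it on every array. The part of these cells in the erythroid differences was not tested.

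The comparison of RA with control asks the same of RA-exposed buds. The 2 parts gave unlike counts, and the difference between them was not tested. Distally 7 of the 9 genes were higher in RA, none by 2-fold, with a median log2 difference of 0.27, while proximally 3 of 9 were higher and the median was -0.15. Over all genes 5082 of 11389 were higher distally and 5856 of 11521 proximally. Hemgn was 5.34-fold lower in the proximal part (-2.42), the 1 member of 9 that was 2-fold apart there. Of all genes 3.69% were 2-fold higher and 6.8% lower proximally, and 2.16% and 2.13% distally. Gata1 was lower proximally (-0.92) and higher distally (0.61), and Slc4a1 differed by -0.15 and 0.68. Klf1 was the 1 member with both RA arrays below both control arrays (-0.57 and -0.37), as were 23% of all genes, and below all 4 other arrays, as were 15.8%. By their brightest probe sets the 3 globins were the members with both RA arrays above both control arrays, as were 21.2% of all genes, with Hba-x at 0.68 and 0.25 and Hbb-y at 0.03 and 0.27. For Hbb-bh1 this did not hold on probe set 1437990_x_at, which gave 10150.5 in proximal RA and 10286 in proximal control. None of the 9 had both RA arrays above all 4 others (12.5% of all genes).

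In the additive fit 0 of 9 passed for RA, and 1, Hba-x, had an unadjusted p under 0.05 (fitted log2 effect 0.47, SE 0.16, limma adjusted p = 0.255). Of all genes 0.305% were called higher and 0.239% lower, and 6.89% and 9.84% had an unadjusted p under 0.05. Without the proximal RA array the fitted effect of Slc4a1 was 0.60 and that of Hemgn turned to 0.38. Without the distal RA array the RA effect rests on the proximal RA array alone. It was then -2.17 for Hemgn, 0.62 for Hba-x and 0.69 for Hbb-bh1. Without the distal control array the effect of Hemgn was -1.90. These fits leave 1 array in a condition, so only fitted effects are given. After quantile normalization the fitted RA effects of Hbb-bh1 and Hbb-y turned to -0.04 and -0.30, so the direction of these globins in RA depends on the scaling. The size for Hbb-bh1 also depends on the probe set, with fitted RA effects of 0.40 by 1437810_a_at, 0.034 by 1437990_x_at and 0.13 by 1450736_a_at.

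Set directly against dKO, most erythroid genes had lower signal in RA, as had most of all genes. In the proximal part 7 of 9 were lower, as were 6331 of 11782 genes. There 3 of 9 were 2-fold or more apart (Hemgn -2.24, Epor -1.90 and Gata1 -1.15). In the distal part 6 of 9 were lower, as were 6575 of 11637 genes, and Epor (-1.16) was the 1 member past 2-fold. The medians were -0.58 and -0.19, against -0.06 and -0.06 over all genes. Of all genes 13% were 2-fold or more apart proximally, in either direction, and 8.82% distally. Klf1 differed by -0.96 and -0.87.

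**Figure D2:**
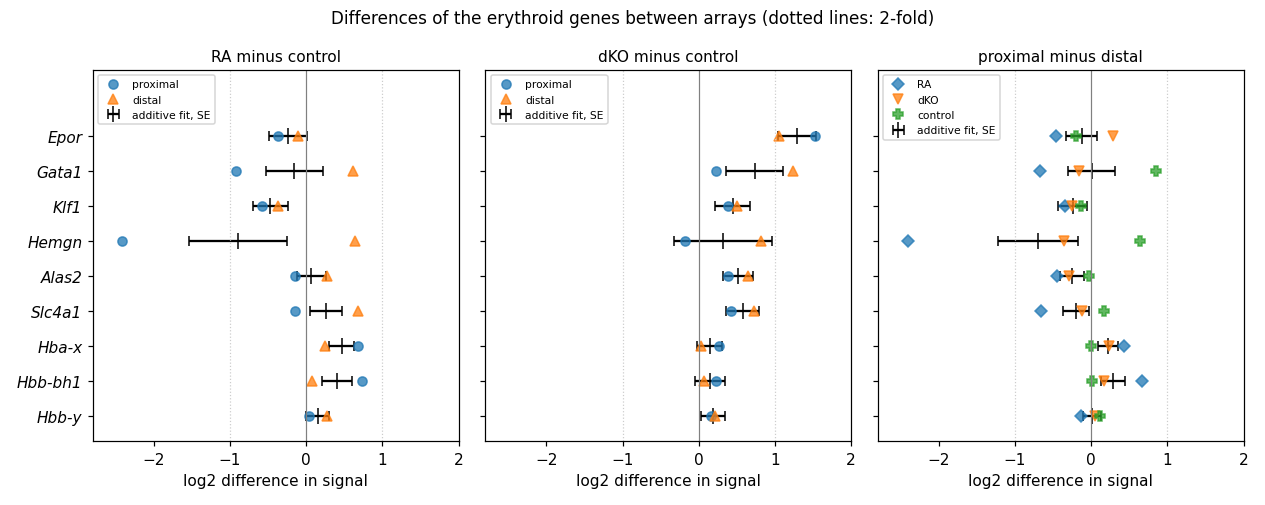
Log2 difference in signal of each erythroid gene for RA minus control, dKO minus control and proximal minus distal. Coloured symbols are differences between 2 single arrays, black bars the fitted effect ± SE of the additive model over 6 arrays, and dotted lines 2-fold. The dKO differences lie right of 0 except Hemgn proximally (-0.18), and the RA differences of Hemgn are -2.42 proximally and 0.63 distally.

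The comparison of proximal with distal parts asks whether the more proximal tissue held more blood. In control buds the 9 genes were level: 5 were higher and 4 lower proximally, with a median log2 difference of 0.01 and none at 2-fold, against 1.35% of all genes 2-fold higher and 1.4% lower. Gata1 (0.85) and Hemgn (0.65) differed most. In dKO 4 were higher and 5 lower, with a median of -0.12 and none at 2-fold (0.515% and 0.722% of all genes). In RA 7 of 9 were lower proximally, as were 5259 of 11494 genes, with a median of -0.45. Hemgn was 5.29-fold lower, the 1 member at 2-fold (4.4% of all genes were 2-fold higher and 6.16% lower).

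For position the additive fit called 0 of 9 members, with 0 at an unadjusted p under 0.05, and 0% of all genes in either direction (4.87% higher and 4.64% lower at an unadjusted p under 0.05). The fitted position effect of Hemgn was -1.38 without the distal control array, the same without both control arrays, and 0.15 without the proximal RA array. Endothelial genes were higher proximally in 10 of 10 in every condition, with medians of 0.60 in RA, 0.56 in dKO and 0.35 in control, and none of the 10 was called.

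The proximal RA array was low for some erythroid genes and high for others. Cpox, a late enzyme of haem synthesis, had a signal of 87.9 there, against 495 in proximal control (-2.49). Slc25a37, the mitochondrial iron importer mitoferrin, had 374.5 against 1109 (-1.57). Both genes were higher in the distal RA array than in distal control (0.49 and 0.47), the same split as Hemgn. Alad and Urod, enzymes of earlier steps of the same pathway, went the other way in the proximal part, with 6088 against 2394 (1.35) and 11030 against 5009 (1.14), and by 0.32 and 0.06 distally. The haem synthesis list had 2 of 7 genes 2-fold higher and 1 lower proximally (3.69% and 6.8% of all genes), with a median of 0.06. The part of array quality in these values was not tested.

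Other genes of the red cell programme were read from lists. Over all genes 6115 of 11580 were higher in dKO than in control proximally and 5967 of 11646 distally. Of 11 erythroid transcription factor genes 8 were higher in dKO in each part (medians 0.30 and 0.37), and Gata2, a regulator of blood progenitors and endothelium, rose (fitted log2 effect 1.71, SE 0.24, limma adjusted p = 0.0209), the 1 call of the list. Gata2 missed the threshold after quantile normalization (1.67, limma adjusted p = 0.0633) and after division by the array median (1.44, adjusted p = 0.0804). It also missed it without the distal dKO array, with a fitted effect of 1.52. Tal1, which acts with GATA1 in red cell precursors and is also active in endothelium, had 321 and 633 in RA, 809 and 907 in dKO, and 498 and 490.4 in control, with dKO highest in both parts (fitted 0.79, adjusted p = 0.331). Without both RA arrays the fitted dKO effect of Tal1 was the same, 0.79. Gfi1b, a repressor needed for red cell formation, had a fitted dKO effect of 0.66 (limma adjusted p = 0.139) and was below the floor on the proximal RA array.

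Of 7 genes of erythropoietin signalling, 5 were higher in dKO in each part (medians 0.53 and 0.43). Stat5a, which transmits the receptor's signal, had 166 and 205 in RA, 445 and 462 in dKO, and 212 and 118 in control, so the dKO arrays were above the rest (fitted 1.52, SE 0.33, limma adjusted p = 0.0829). Cish, a feedback target of STAT5, had 90.1 and 72.9 in RA, 151 and 143 in dKO, and 85.3 and 84.5 in control (fitted 0.79, adjusted p = 0.113). The 2 members lower in dKO were Pim1, a kinase gene that STAT5 activates, and Bcl2l1, a survival gene that STAT5 activates in red cell precursors. Pim1 had 634 and 884 in RA, 769 and 599 in dKO, and 952 and 973 in control (fitted dKO effect -0.50, limma adjusted p = 0.559). Bcl2l1 had 495.5 and 531.5 in RA, 495 and 585 in dKO, and 736 and 767 in control (fitted -0.48, adjusted p = 0.444). With arrays left out the fitted dKO effects ranged from 1.01 to 2.03 for Stat5a and from 0.70 to 0.88 for Cish. Without both RA arrays Stat5a and Cish kept the fitted dKO effects of the full fit, 1.52 and 0.79. Both genes act downstream of many receptors and are not confined to red cells. In RA the list's medians were -0.35 and -0.14, with 0 of 7 called.

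The remaining lists had 0 calls for RA and for dKO over all genes. Iron handling genes had medians of 0.13 and 0.08 in dKO and 0.04 and 0.14 in RA, over 6 measured. Red cell membrane and cytoskeleton genes were higher in dKO in 8 and 7 of 10 (medians 0.20 and 0.26), and in RA lower proximally in 9 of 10 (-0.39) and higher distally in 8 (0.12). Among 15 other erythroid genes the dKO medians were 0.20 and 0.09, with Fam210b (fitted 0.895, limma adjusted p = 0.115) and the haem-degrading pathway enzyme gene Blvrb (0.69, adjusted p = 0.135) the most different, and the RA medians were -0.08 and 0.03. Without both RA arrays Fam210b and Blvrb kept the fitted dKO effects of the full fit, 0.895 and 0.69. Haem synthesis genes had dKO medians of 0.13 in both parts. Megakaryocyte and platelet genes had medians of -0.15 and -0.61 in RA and 0.03 and 0.23 in dKO, and blood progenitor genes -0.20 and 0.12 in RA and 0.41 and 0.37 in dKO, but only 1 of 7 and 3 of 7 genes of these lists were above the floor on all arrays. In RA, macrophage genes were higher in 6 of 7 measured proximally and 9 of 9 distally (medians 0.39 and 0.51), endothelial genes in 8 and 5 of 10 (0.56 and 0.12), and limb mesenchyme genes lower in 8 and 7 of 10 (-0.51 and -0.12).

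**Figure D3:**
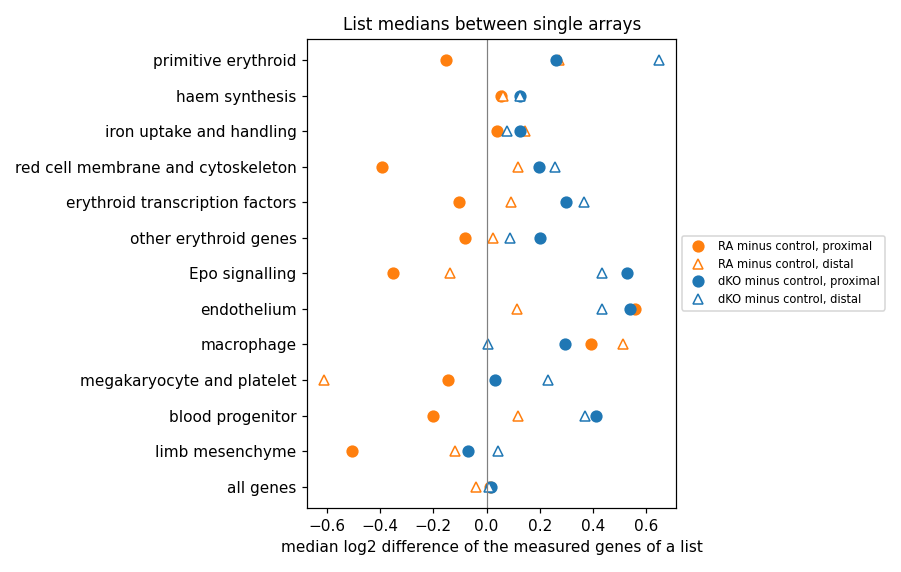
Median log2 difference between single arrays for each gene list, RA minus control (orange) and dKO minus control (blue), in the proximal (filled circles) and distal (open triangles) part. The erythroid genes lie at 0.26 and 0.65 in dKO and at -0.15 and 0.27 in RA, all genes lie within 0.05 of 0, and endothelial genes are right of 0 in all 4 comparisons.

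The adult globin genes differed between the parts in opposite directions. On the array 3 of 9 listed adult and minor globin genes had a probe set of their own and 2 were above the floor, on all arrays. Hbb-b2, an adult beta-globin gene, gave 504 proximally and 2875 distally in RA, 2235 and 5122 in dKO, and 2784 and 4864 in control. It was lower in the proximal part in all 3 conditions (log2 -2.51, -1.20 and -0.805). These values rest on 1 probe set (1427865_at), since the other probe set of the gene (1427866_x_at) had signals of 10.8 to 28.0 and was below the floor on all arrays. Hba-a2, an adult alpha-globin gene, gave 1505 and 979.5 in RA, 1977 and 1619 in dKO, and 1906 and 1381 in control. It was higher in the proximal part in all 3 conditions (0.62, 0.29 and 0.46), and both genes were lower in RA than in control in both parts. Over all 6 arrays neither was called for position (Hbb-b2 -1.50, SE 0.30, limma adjusted p = 0.193; Hba-a2 0.46, SE 0.13, adjusted p = 0.334) or for RA (Hbb-b2 -1.61, adjusted p = 0.132; Hba-a2 -0.42, adjusted p = 0.28). With the mean over both probe sets the fitted effects of Hbb-b2 were -0.76 for position (limma adjusted p = 0.365) and -0.76 for RA (adjusted p = 0.246). The second probe set entered that mean at the floor on every array. The smaller effects follow from this averaging and are no check on the first probe set. With any 1 array or pair left out the fitted position effect of Hbb-b2 was -1.85 to -1.001. Its RA effect was -2.37 to -0.86 in such fits, and that of Hba-a2 was -0.54 to -0.30. Each of these fits has 1 residual degree of freedom, so only fitted effects are given.

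**Figure D4:**
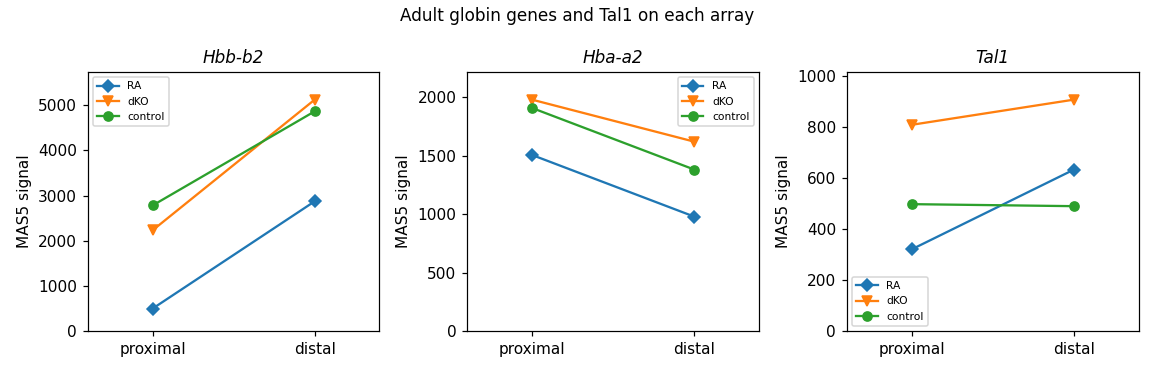
MAS5 signal (linear axis from 0) of the adult globin genes Hbb-b2 and Hba-a2 and of Tal1 on the proximal and distal arrays of RA, dKO and control buds, with 1 array per point and lines joining the parts of a condition. Hbb-b2 is lower proximally in each condition and Hba-a2 higher, and the 2 dKO arrays have the highest Tal1 signals (809 and 907).

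The genes most like the members were sought among 2625 other genes that were above the floor on all 6 arrays and ranged over at least 1 on the log2 scale, by Pearson correlation over the 6 arrays with the members' mean profile. That profile was -0.42 and 0.03 in RA, 0.31 and 0.36 in dKO, and -0.07 and -0.22 in control. Gata1 and Alas2 followed it at r = 0.94, while Hba-x and Hbb-bh1, the latter read by 1437810_a_at alone, ran against it (-0.46 and -0.48). The 15 genes most like it were Dgkh (0.986), Ndrg4 (0.986), Tal1 (0.98), Gpm6b, Cdyl2, Zc3hav1, Atf3, Wnk4, Atp1b1, Tent5c, Camkv, AI504432, Nfkbie, Sntb1 and Zdhhc23 (0.954). Tal1 is the 1 gene among them that is on a list used here. All 15 were higher on the dKO arrays and lowest on the proximal RA array, the arrays that set the profile.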

How the data were processed

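The authors' deposited values are linear signal intensity from MAS5, per the submitters' processing notes. By the values, each array is scaled so that its mean signal without the lowest and highest 2% of probe sets is 500. No scanner files or detection calls were used here, no MAS5 version was given in these sources, and 0 value columns were left out. Gene names come from GEO's platform annotation: 34945 probe sets have 1 symbol, 932 several and 9211 none, and 34741 of the first matched RefSeq by gene ID. Each gene was represented by the probe set whose log2 signal averaged highest over the arrays. Signals below the array median were set to it before log2. A gene entered a comparison when 1 of its arrays was above the floor.

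The additive model (limma 3.58.1, R 4.3.3, trended prior, Benjamini-Hochberg over 12147 genes, threshold 0.05) has 2 residual and 4.64 prior degrees of freedom, so its p-values rest mostly on the variance pooled over genes and ask whether an effect is alike across pairs of arrays. The members and lists were chosen with earlier results of these data known. All 9 members are named. Of other lists, at most 4 genes with the largest differences in a comparison are named. Alternatives were quantile or median scaling, other treatments of low values, the mean of probe sets, a prior without trend, and leaving out arrays. The number of arrays limits the precision.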

Additional observations from a re-analysis of the deposited data

Results flagged for a closer look

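Opposite differences under the same contrast, each at least 0.5 in size on the log2 scale, were found for Hemgn and Gata1. Hemgn differed from control in RA by -2.42 proximally and 0.63 distally, and between proximal and distal parts by -2.40 in RA and 0.65 in control. Gata1 differed from control in RA by -0.92 proximally and 0.61 distally, and between parts by -0.68 in RA and 0.85 in control. These 4 differences per gene come from the same 4 arrays, with 1 array in each group, and the difference between the parts was not tested. The proximal RA array, which stands apart from the other 5, enters every one of these contrasts that is negative.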

How the results depend on the processing

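The counts of members called by limma kept their value of 0 for RA and position under both scalings, the other treatments of low values, the mean of probe sets, the prior without trend and the separate fit of each probe set, an alternative chosen after seeing the data. For dKO the count was 1 with the fixed floor of 100 and 1 with the mean of probe sets, Epor in both. Leaving out arrays gave 0 to 3 members for dKO, 0 to 3 for RA and 0 to 1 for position. The number of members 2-fold apart between distal dKO and control was 1 after quantile normalization, 0 after division by the array median and 1 with log2(signal + 16), and between distal RA and dKO 0 after division by the array median. The median of the members in distal dKO against control was 0.29 after that division. The cause was not tested.

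Fitted effects that changed sign, none of them past the threshold, were Hbb-bh1 (-0.041) and Hbb-y (-0.30) for RA and Hbb-y for position (-0.20) after quantile normalization. After division by the array median they were Alas2 for RA (-0.023) and Hba-x (-0.13), Hbb-bh1 (-0.12) and Hbb-y (-0.086) for dKO, and with the fixed floor Epor for position (0.040). With arrays left out, the dKO effects ranged from -0.024 to 0.31 for Hba-x, -0.054 to 0.35 for Hbb-bh1, 0.099 to 1.37 for Gata1, 0.29 to 0.85 for Slc4a1 and -0.69 to 1.33 for Hemgn. The RA effects ranged from -0.11 to 0.24 for Alas2, -0.49 to 0.011 for Epor, -0.79 to 0.48 for Gata1, -2.17 to 0.38 for Hemgn and -0.081 to 0.60 for Slc4a1. The position effects ranged from -0.33 to 0.041 for Epor, -0.42 to 0.34 for Gata1, -0.039 to 0.082 for Hbb-y, -1.38 to 0.15 for Hemgn and -0.39 to 0.029 for Slc4a1. Over all genes, limma called 283 for dKO (87 after quantile normalization, 115 after division by the median, 147 with the fixed floor, 280 to 1398 with arrays left out), 66 for RA (15, 35, 7 and 153 to 4812, and 183 with each probe set on its own) and 0 for position (225 to 413 with arrays left out). No paired analysis was possible because every group has 1 array, so that all 6 share 1 replicate number; the additive model already compares the parts within each condition. The table holds no saturation flags, and whether globin differences are compressed at high signal was not tested.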
